A study of Mus musculus with 4 samples.

Results

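Surface protein was read in the same droplets as RNA from intratumoral T cells, with a panel of antibodies that each carry a DNA tag (CITE-seq). The panel comprised 198 tags, of which 180 are described here: all tags with a name, leaving out the 9 isotype controls and 8 antibodies (CD38, CD39, Ly-6C, CD4, CD8a, CD8b, CD62L and CD25). 1 tag carried no name. The tags were compared across 3 classes of T cells that were called from RNA alone, namely Cd4 cells, Cd8 cells and Foxp3 cells, and between tumors with and without a B7-H3 hairpin.

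The T cells were sorted for CD3 from subcutaneous tumors in wild-type C57BL/6J mice. The tumor cells were of the Tsc2-deficient mouse line 105K, of renal origin. The control tumors expressed a non-targeting hairpin (sh-NC, 2 libraries) and the knockdown tumors a hairpin against Cd276, the gene of B7-H3 (sh-B7-H3 (1), 2 libraries), so 1 hairpin stands for the knockdown. In each group 80 tumors were pooled. The sources differ on whether the 2 libraries of a group were loads of 1 pool or separately pooled samples, so p-values measure the spread between libraries, which may be technical, and not between mice. An Fc receptor block and the anti-CD3 antibody used for sorting were applied before the tags.

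Surface proteins divide T cells by function. The T cell receptor and CD3 recognize antigen, and CD28, ICOS, GITR, OX-40 and 4-1BB are costimulatory receptors, several of which mark regulatory T cells, the Foxp3-expressing cells that restrain immune responses. PD-1, Tim-3 and TIGIT are inhibitory receptors that accumulate on T cells with prolonged antigen exposure, and CD127, the IL-7 receptor alpha chain, is high on resting and memory cells. Isotype control antibodies bind no mouse antigen, and droplets without a called cell hold antibody that is not on a called cell, so both give a background for a tag. Whether the antibody in such droplets was free or bound to cell material was not tested.

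Called cells numbered 12112 and 10589 in libraries 1 and 2 of sh-NC and 7030 and 9129 in those of sh-B7-H3 (1). Of these, 7549, 6233, 3499 and 4619 passed the gene and mitochondrial filters, so a larger part failed them in sh-B7-H3 (1). After removal of doublets, 5887 and 4885 sh-NC cells and 2954 and 3862 sh-B7-H3 (1) cells were kept in libraries 1 and 2. In the same order, 1750, 1312, 1068 and 1382 kept cells fell in no class. Cd4 cells numbered 1390 and 1158 in sh-NC and 617 and 819 in sh-B7-H3 (1), Cd8 cells 2461, 2138, 1107 and 1485 in the same order, and Foxp3 cells 286, 277, 162 and 176. Tag UMIs, counts of unique molecules, numbered 51672919 to 95537054 per library in called cells, and the median Cd4 cell held 3258 to 4493. The libraries shared 17 to 35 barcodes pairwise. Levels are given as tag UMIs per 10000 after TMM scaling, which aligns the bulk of the tags between sums. The scaling factors behind these levels, and behind the interaction fits, were set over all 12 sums of library and class. Those of the fits between hairpins were set over the 4 sums of a class. The log2 ratio of the levels therefore lay below the fitted log2 fold change in Foxp3 cells, by a median difference of -0.09 over the 180 tags, while in Cd4 and Cd8 cells the median difference was under 0.01 in size.

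The CD4, CD8b and CD25 tags, which were left out of the set, were used to check the classes. The CD8a tag, also left out, was not called between Cd8 and Cd4 cells by the rule given below. The CD4 tag lay between 21.7 and 40.9 per 10000 in Cd4 cells and between 2.91 and 3.64 in Cd8 cells, and the CD8b tag between 126 and 189 in Cd8 cells and between 7.45 and 10.2 in Cd4 cells. The CD25 tag lay between 9.11 and 13.3 in Foxp3 cells and between 2.24 and 2.79 in Cd4 cells. RNA of other cells was present at levels that differed by marker. The B cell gene Ms4a1 reached at most 0.176 CPM (RNA counts scaled to equal library size) in any class and the NK gene Ncr1 was at 0 in all. The summed level of the myeloid genes Lyz2, Csf1r, C1qa and Cd68 was 8.92 to 37.9 CPM in Cd4 and Cd8 cells and 46.4 to 182 CPM in Foxp3 cells, where Foxp3 itself had 367 to 510 CPM. The epithelial gene Epcam had 4.65 to 13.6 CPM in Cd4 and Cd8 cells and 19.9 to 42.2 CPM in Foxp3 cells, and Trdc, of gamma-delta T cells, reached 19.8 CPM in Cd8 cells. The hemoglobin gene Hbb-bs had 21.3 CPM in Cd4 cells of sh-NC library 1 and at most 1.97 CPM in the other sums.

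The first question was which antibodies gave a signal on these cells at all. By mean UMIs per cell, 122 of the 180 tags exceeded every isotype tag in all 4 libraries in Cd4 cells, 121 in Cd8 cells and 126 in Foxp3 cells. This included antigens that T cells lack. The tag of CD20, the product of Ms4a1, passed the isotype limit in 92.7 to 99.7% of Cd4 and 93.9 to 99.7% of Cd8 cells, although it took a smaller part of tag UMIs in Cd4 cells (0.350 to 0.391 times) than in empty droplets. Empty droplets held CD20 at 209 to 279 per 10000 tag UMIs. A stricter comparison, added after these values were seen, set the share of a tag in cells against its share in empty droplets. It asked for a higher ratio than any isotype tag in all 4 libraries, so a tag above them in only 1 group did not pass. The isotype tags had ratios of 0.311 to 0.589. By this measure 38 tags stood above the background in Cd4 cells, 41 in Cd8 cells and 50 in Foxp3 cells, and 124 tags did so in no class.

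34 tags stood above the background in all 3 classes. Among them were T cell lineage proteins. The TCR beta chain was 3.58 to 5.35 times enriched over empty droplets in Cd4, 1.97 to 3.16 times in Cd8 and 2.15 to 3.63 times in Foxp3 cells, and CD90.2 (Thy1), the allele of this strain, 2.33 to 3.71, 2.55 to 4.41 and 1.40 to 2.55 times. CD2, CD45, CD48, CD5, CD11a, CD43, CD44, CD54, CD127, CD27, PD-1 and GITR belonged to the same set. So did proteins better known from other cells, among them CD86, a ligand of CD28 on antigen-presenting cells, with 2.41 to 3.86 times in Cd8 cells, I-A/I-E, CD11b, CD155 and CD61. The absent alleles did not pass in any class. CD90.1 reached 0.334 to 0.445 times its share in empty droplets over the 3 classes. CD45.1 reached 0.351 to 0.466 times in 11 of the 12 sums, and 3.04 times in Cd4 cells of sh-NC library 2, where 1 barcode held 87.0% of its UMIs.

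The counts above the background are given by functional group, beside the 38, 41 and 50 of all 180 tags, and no group was tested against the rest. Among 8 tags for T cell receptor chains, segments and CD3, 2 did so in Cd4 cells and 3 in Cd8 and Foxp3 cells. The CD3 tag itself stayed at 19.2 to 23.7 per 10000 in every class and library, and passed only in Foxp3 cells as counted, and in Cd8 cells too after each cell's count was capped at the 99th percentile. The part that the anti-CD3 antibody applied before has in this was not tested. Among 14 checkpoint and activation tags, 2 passed in Cd4 cells (PD-1 and CD200R), 2 in Cd8 cells and 4 in Foxp3 cells, where KLRG1 and Tim-3 joined. The tags of CD69, CD160 and TIGIT passed in no class. Among 10 tags for costimulatory receptors, TNF receptors and their partners, 5 passed in Cd4, 3 in Cd8 and 6 in Foxp3 cells, and among 25 adhesion and homing tags 9, 11 and 12. Of the 4 cytokine receptor tags 1, 2 and 1 passed. Among tags for antigens of other cells, 1, 0 and 1 of 11 B cell tags passed, 2, 3 and 2 of 25 myeloid tags, 2 of 11 NK tags in each class, and 2, 2 and 3 of 16 tags for platelets, red cells, endothelium, epithelium and stroma. The 2 NK tags were CD49b and CD27, which is also among the costimulatory tags, while NK-1.1 and NKp46 passed in no class. Of the last group CD61 and CD102 passed in every class. The myeloid tag that passed in Cd8 cells alone was CD205, where 1 barcode held 77.2% of its UMIs in sh-NC library 1.

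The second comparison asked how the surface of Foxp3 cells differs from that of Cd4 cells. 8 tags were higher on Foxp3 cells and none was lower at an adjusted p under 0.05 and a difference of at least 1 on the log2 scale (edgeR quasi-likelihood test, Benjamini-Hochberg adjustment over the 197 named tags), against 4.57% of all named tags. By adjusted p alone 41 were higher and 33 lower, against 38.6% of all named tags. The 8 tags were KLRG1, CD73, GITR, ICOS, Sca-1, CD5, CD11b and I-A/I-E.

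KLRG1, an inhibitory receptor of terminally differentiated lymphocytes, differed most. Its tag lay at 57.3, 65.6, 47.4 and 42.2 per 10000 in Foxp3 cells of sh-NC libraries 1 and 2 and sh-B7-H3 (1) libraries 1 and 2, and at 5.91, 6.04, 5.86 and 6.03 in Cd4 cells. The ranges did not overlap in any library, and the log2 difference was 3.15 (SE 0.141, adjusted p = 4.95e-06, edgeR). The RNA went the same way, with Klrg1 at 268 ± 27.1 CPM in Foxp3 and 5.08 ± 1.097 CPM in Cd4 cells (SD, n = 4).

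GITR, a costimulatory receptor that regulatory T cells carry at rest, was 9.16 to 14.2 times enriched over empty droplets in Foxp3 cells. It had the highest ratio of the 180 tags in library 1 of both groups, and the second highest in library 2, after CD5 (12.4 times) in sh-NC and CD205 (12.5 times) in sh-B7-H3 (1), whose UMIs there came to 74.5 and 94.7% from 1 barcode. Its level was 367, 408, 335 and 296 per 10000 in Foxp3 cells and 96.1, 106, 104 and 122 in Cd4 cells. ICOS, a CD28 relative, lay at 44.7, 54.9, 41.2 and 32.3 against 16.5, 16.4, 10.5 and 10.5. Both were about equally higher, with log2 differences of 1.70 (SE 0.123, adjusted p = 3.56e-05) for GITR and 1.70 (SE 0.0847, adjusted p = 7.35e-06) for ICOS (edgeR).

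CD73, an ectoenzyme that makes adenosine from AMP, was higher by 1.75 on the log2 scale (SE 0.195, adjusted p = 0.000375, edgeR), at 105, 140, 98.5 and 95.8 per 10000 in Foxp3 cells and 43.2, 47.9, 21.2 and 26.2 in Cd4 cells. Sca-1 (Ly-6A/E), an interferon-inducible membrane protein, lay at 431, 452, 349 and 379 in Foxp3 cells and at 207, 201, 86.0 and 101 in Cd4 cells. In both tags the lower Cd4 values are those of the sh-B7-H3 (1) libraries, and every Foxp3 value still exceeded every Cd4 value.

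The other 3 tags need their error beside them. CD5, an inhibitory co-receptor of the T cell receptor, differed by 1.45 (SE 0.373, adjusted p = 0.0209, edgeR), but 1 barcode held 74.5% of its UMIs in Foxp3 cells of sh-NC library 2. With counts per cell capped, the difference was 0.91, under the fold limit, and without that library it was 0.93. Without sh-B7-H3 (1) library 1 or 2 the adjusted p was 0.0709 or 0.0685 (edgeR). CD11b, an integrin of myeloid cells, lay at 21.4 to 30.5 per 10000 in Foxp3 and 8.39 to 13.5 in Cd4 cells, and I-A/I-E, the mouse MHC class II, at 146 to 173 and 64.8 to 79.0. Foxp3 cells also held more myeloid RNA, as given above. Without the cells that had a UMI of those 4 genes (5.59 to 15.9% of Foxp3 cells), the differences were 1.16 for CD11b and 1.13 for I-A/I-E, against 1.28 and 1.12 with them. Without doublet removal I-A/I-E had 0.98, under the fold limit.

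All 8 genes of these tags were higher in Foxp3 cells too, among them Tnfrsf18, the gene of GITR, with a log2 difference of 2.57, and Nt5e, the gene of CD73, with 2.80. Itgam, the gene of CD11b, had an adjusted p of 0.302 (edgeR). Of 9 tags associated with regulatory T cells, 4 were called higher and none lower, with a median log2 difference of 0.86 against -0.04 over all named tags. The other 5 were CD103, an integrin of tissue-resident cells, with 0.86, OX-40 with 0.62, TIGIT, whose sum rests on 1 barcode, CTLA-4 and neuropilin-1. The tags of OX-40, TIGIT, CTLA-4 and neuropilin-1 passed the empty-droplet background in no class. By the isotype limit, neuropilin-1 was positive in 36.5, 15.0, 23.4 and 14.9% of Foxp3 cells, with libraries in the order used above. In Cd4 cells it was positive in 34.1, 26.8, 40.4 and 25.5%. CTLA-4 was positive in 40.4, 31.4, 44.3 and 23.0% against 30.3, 28.6, 41.1 and 29.5%. The limit was 5, 6, 7 and 9 UMIs in Foxp3 and 5, 5, 6 and 7 in Cd4 cells. The gene differences were wider for CD103 and OX-40: Itgae, the gene of CD103, differed by 4.74 and Tnfrsf4, the gene of OX-40, by 3.89. By their median the groups of pan-leukocyte and allele tags (10 tags, 0.36, with 2 called) and costimulatory tags (10 tags, 0.24, with 2 called) stood above the all-tag median. The former group includes the absent alleles CD45.1 and CD90.1, and its 2 called tags were CD5 and I-A/I-E. The adhesion tags (25, median 0.04, 1 called), checkpoint tags (14, 0.09, 1 called) and T cell receptor tags (8, -0.07, none called) lay near the all-tag median.

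**Figure D1:**
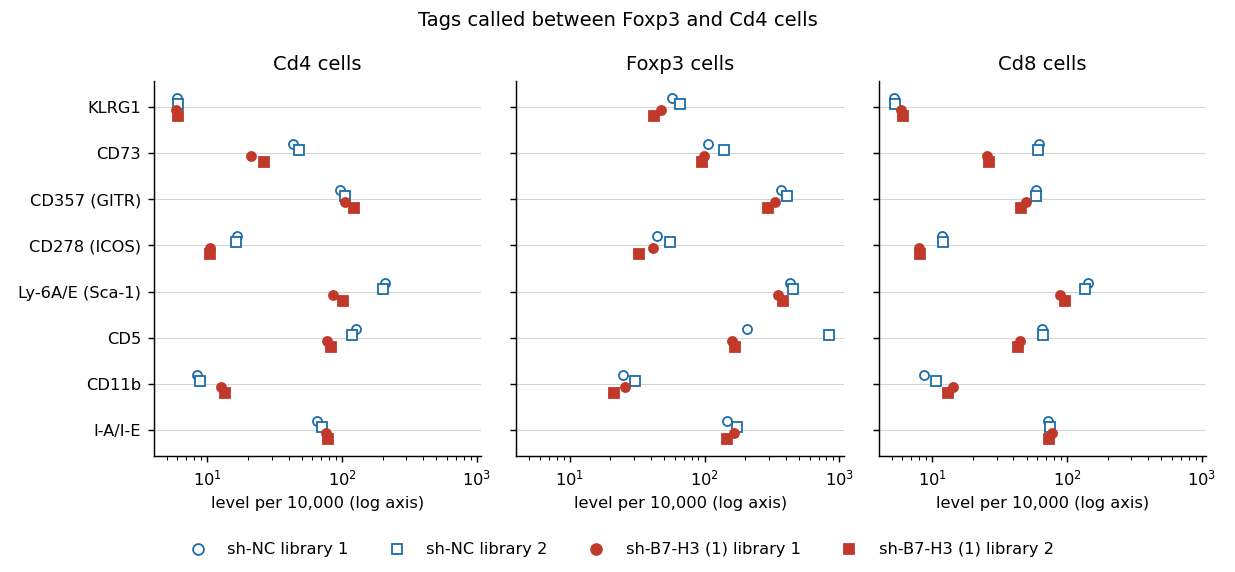
Levels of the 8 tags called between Foxp3 and Cd4 cells, in tag UMIs per 10000 after TMM scaling on a log axis, with 1 point for each library in Cd4, Foxp3 and Cd8 cells. KLRG1 lies at 42.2 to 65.6 in Foxp3 cells and at 5.86 to 6.04 in Cd4 cells, and the high CD5 value of sh-NC library 2 rests on 1 barcode.

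Cd8 cells differed little from Cd4 cells on this panel. Only GITR passed both limits, against 1.52% of all named tags. The named tags that passed include CD4 and CD8b but not CD8a. GITR lay at 58.4, 59.1, 49.3 and 45.6 per 10000 in Cd8 cells, below the 96.1 to 122 of Cd4 cells, with a log2 difference of -1.02 (SE 0.121, adjusted p = 0.000976, edgeR). Without doublet removal it was -0.99, and without sh-B7-H3 (1) library 1 or 2 it was -0.99 or -0.87, all under the fold limit. By adjusted p alone 11 tags were higher and 11 lower, against 13.2% of all named tags.

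The third comparison asked how the surface of each class differs between sh-B7-H3 (1) and sh-NC tumors. Cd4 RNA, by which Cd4 cells were called, was itself at 248 and 242 CPM in sh-NC and 498 and 474 CPM in sh-B7-H3 (1) Cd4 cells. Whether the call took in the same part of CD4 T cells in both groups was not tested. In Cd4 cells 1 tag rose and 8 fell, against 6.09% of all named tags. In Cd8 cells 2 rose and 7 fell, against 6.09%. In Foxp3 cells 1 rose and 2 fell, against 2.03%. By adjusted p alone, 50 tags were higher and 48 lower in Cd4 cells, 58 and 59 in Cd8 cells, and 36 and 36 in Foxp3 cells, against 53.8%, 63.5% and 39.6% of all named tags. The members thus passed about as often as the whole panel did. Cells with a UMI of the 4 myeloid genes were more frequent in the sh-B7-H3 (1) libraries, at 9.40 and 6.96% against 2.66 and 4.58% in Cd4 cells, 10.3 and 9.02% against 4.55 and 4.91% in Cd8 cells, and 11.7 and 15.9% against 5.59 and 6.498% in Foxp3 cells. Without these cells all called tags kept their call. CD24 and CD270 (HVEM) were then called in Cd8 cells as well, as they were with DESeq2, isotype scaling or capped counts.

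2 measurements frame these values. CD90.2 took the most UMIs of all tags, and its log2 fold change of -0.77 in Cd4 and -0.80 in Cd8 cells, under the fold limit, moves the share of every other tag. The bulk of tags that TMM aligns holds many of the 124 that passed the background in no class. Isotype tags took 0.306 and 0.293% of tag UMIs in sh-NC and 0.389 and 0.399% in sh-B7-H3 (1) Cd4 cells. Scaling by total tag UMIs, in place of TMM, placed the median of all tags at 0.30 in Cd4, 0.42 in Cd8 and 0.32 in Foxp3 cells, and 9 of 12, 12 of 14 and 7 of 10 calls were then higher, against 3 of 12, 4 of 12 and 1 of 4 with TMM. Of the called members, that scaling ended the calls of CD102, CD2, CD26, CD45, CD95 and Sca-1 in Cd4 cells, of CD102, CD1d, CD26, CD36, CD45 and CD73 in Cd8 cells, and of CD1d in Foxp3 cells. Empty droplets also differed between the groups. Their log2 ratio of shares of tag UMIs (sh-B7-H3 (1) over sh-NC) is set beside the change of the tag's share in cells, which is the change scaled by total tag UMIs and is named the share change. By size, the share change exceeded that in empty droplets for 7 of the 9 called tags in Cd4 cells, 7 of 9 in Cd8 cells and 3 of 3 in Foxp3 cells, and for 6, 6 and 2 with counts per cell capped. The part of free antibody in the differences on cells was not tested.

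CD26 (DPP-4), a surface peptidase of T cells, fell in Cd4 and Cd8 cells with TMM scaling. Its level was 162 and 164 per 10000 in sh-NC and 66.4 and 68.8 in sh-B7-H3 (1) Cd4 cells, a log2 fold change of -1.27 (SE 0.0412, adjusted p = 0.00122, edgeR). In Cd8 cells it was 316 and 324 against 128 and 127, a change of -1.32 (SE 0.0348, adjusted p = 0.000275, edgeR). The share changes were -0.98 and -0.91, under the fold limit, and empty droplets had -0.33. The gene Dpp4 differed by -0.84 in Cd4 and -0.50 in Cd8 cells.

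CD1d, which presents lipids to NKT cells, fell in all 3 classes with either scaling. It was called in all 3 with TMM scaling, and in Cd4 cells alone when scaled by total tag UMIs. It lay at 62.5 and 67.4 in sh-NC and at 24.3 and 26.0 in sh-B7-H3 (1) Cd4 cells, and the log2 fold changes were -1.37 in Cd4, -1.12 in Cd8 and -1.25 in Foxp3 cells. The share changes were -1.08, -0.71 and -0.94, beside -0.83 in empty droplets. The RNA of Cd1d1 did not follow, with -0.01, -0.25 and 0.04 and adjusted p-values of 0.953, 0.104 and 0.969 (edgeR).

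CD102 (ICAM-2), an adhesion ligand, fell by 1.05 in Cd4 and by 1.13 in Cd8 cells, beside -0.90 and -0.93 for the gene Icam2. The share changes were -0.76 and -0.72, with -0.52 in empty droplets, and in Cd4 cells the change was -0.98 without sh-B7-H3 (1) library 1. Sca-1 fell in Cd4 cells only by the call rule, from 207 and 201 to 86.0 and 101 (log2 fold change -1.13, SE 0.0932, adjusted p = 0.00258, edgeR), and Ly6a RNA fell by 1.37. Its share change was -0.84, with -0.67 in empty droplets. The death receptor CD95 (Fas) fell by 1.07 in Cd4 cells, from 12.4 and 12.8 to 5.78 and 6.20, beside -0.67 for the gene Fas. Its share change was -0.78, with -0.53 in empty droplets. Its tag stood above the empty-droplet background in all 4 libraries only in Foxp3 cells. In Cd4 cells its ratio to empty droplets was 0.644 and 0.677 in sh-NC, above the highest isotype ratios of 0.510 and 0.472. In sh-B7-H3 (1) Cd4 cells it was 0.553 and 0.557, below the highest isotype ratios of 0.556 and 0.580. CD2 had a change of -1.003 in Cd4 cells that passed only just, with -0.99 without doublet removal and -0.93 without sh-B7-H3 (1) library 1. Its share change was -0.71, smaller than the -0.92 of empty droplets, and its RNA had -0.15.

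In Cd8 cells CD73 fell from 61.5 and 60.5 to 25.4 and 26.2 (log2 fold change -1.24, SE 0.0333, adjusted p = 0.000275, edgeR), beside -0.51 for Nt5e. Its share change was -0.83, with -0.56 in empty droplets. In Cd4 cells CD73 had -0.94 (SE 0.132, adjusted p = 0.00869, edgeR), under the fold limit, with a share change of -0.65. It was called there with isotype scaling, stricter RNA calls or capped counts, and without cells with a myeloid UMI, sh-NC library 1 or sh-B7-H3 (1) library 2. CD36, a fatty acid transporter, fell from 29.6 and 30.3 to 11.4 and 14.3 (-1.22, SE 0.113, adjusted p = 0.00185, edgeR), with a share change of -0.81 and -0.55 in empty droplets. Cd36 RNA was at 0 CPM in 3 libraries of Cd8 cells and at 0.0897 in the remaining one, so no gene change could be fitted.

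CD45, the pan-leukocyte phosphatase, was measured by antibodies that gave different answers. The CD45 tag fell by 1.04 in Cd4 cells (164 and 167 to 79.0 and 82.2) and by 1.07 in Cd8 cells, and had -0.96 in Foxp3 cells, under the fold limit. The tag of CD45.2, the allele of this strain and thus the same protein, had -0.20, -0.26 and -0.10, and 0.09, 0.15 and 0.21 as share changes. The share changes of CD45 were -0.75, -0.66 and -0.65. Empty droplets gave -1.02 for CD45 and -0.20 for CD45.2, and the RNA of Ptprc had -0.04, 0.05 and 0.01. CD90.2 had a share change of -0.48 in Cd4 cells and -1.097 in empty droplets, and Thy1 RNA had -0.07. The ratio of cells to empty droplets was higher in sh-B7-H3 (1) for both tags in Cd4 cells, at 2.72 and 2.60 against 2.15 and 2.26 for CD45 and 3.71 and 3.56 against 2.33 and 2.42 for CD90.2.

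CD22, an inhibitory receptor of B cells, rose in every class, from 2.60 and 2.62 to 5.45 and 6.04 in Cd4 cells, from 2.31 and 2.49 to 5.73 and 5.99 in Cd8 cells, and from 2.43 and 2.56 to 6.099 and 5.91 in Foxp3 cells. The fitted log2 fold changes were 1.14, 1.29 and 1.36. The share changes were 1.43, 1.70 and 1.67 and empty droplets had 1.05. The tag was scarce, with a ratio of 0.416 to 0.757 to empty droplets over the 3 classes. Cd22 RNA reached at most 0.558 CPM in Cd4 cells and at most 0.510 CPM in Foxp3 cells. CCR8, a chemokine receptor of skin-homing and tumor regulatory T cells, rose in Cd8 cells from 2.59 and 2.71 to 5.26 and 5.93 (1.08, adjusted p = 0.000752, edgeR), with a share change of 1.49 and 0.87 in empty droplets. The call was lost with isotype scaling (0.96), without doublet removal (0.74, adjusted p = 0.0732, edgeR) and without sh-B7-H3 (1) library 2 (0.99), and the tag did not pass the background in Cd8 cells.

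CD205, an endocytic receptor of dendritic cells, passed the rule by single barcodes. Its sum fell by 2.42 in Cd4 and by 3.79 in Cd8 cells, and after capping the changes were -0.69 and -0.70. The same holds for CD117 (c-kit), the stem cell factor receptor, in Foxp3 cells, with -1.41 as counted, where 1 barcode held 59.97% of the UMIs of sh-NC library 1, and -0.69 after capping. Its call was also lost without doublet removal (adjusted p = 0.0558) and with stricter RNA calls (adjusted p = 0.0720, edgeR).

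**Figure D2:**
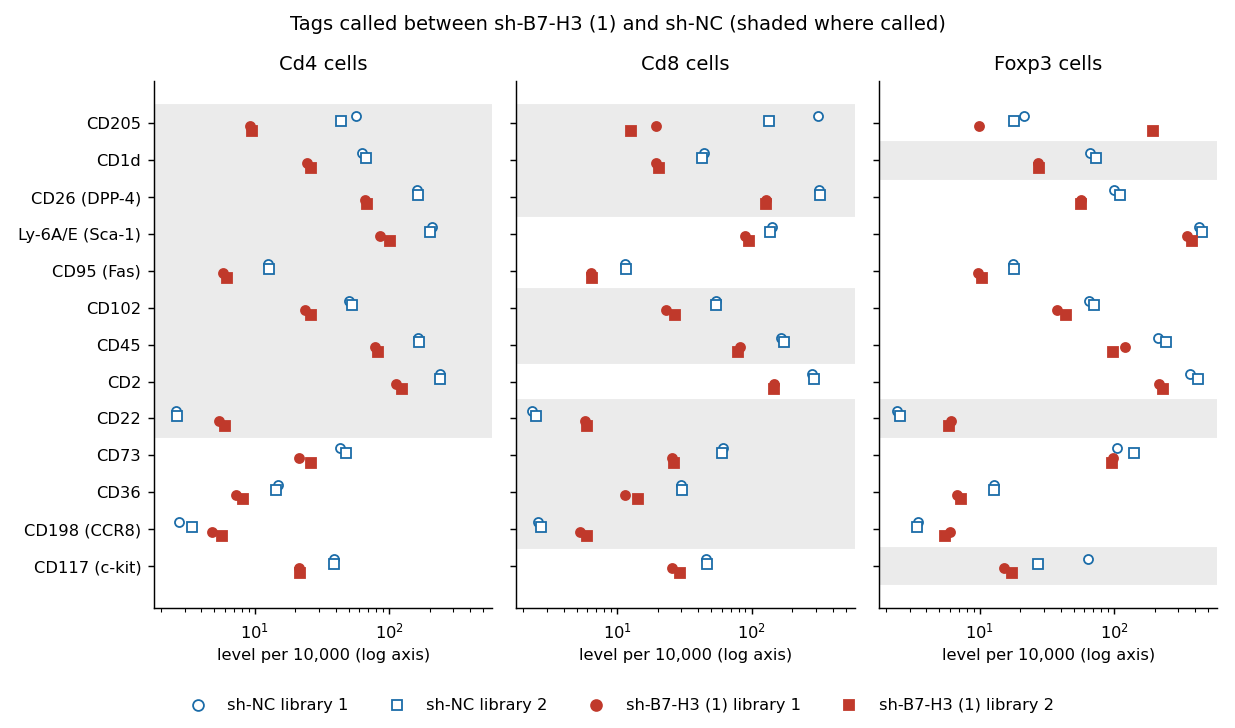
Levels of all 13 tags called between sh-B7-H3 (1) and sh-NC in at least 1 class, in tag UMIs per 10000 after TMM scaling on a log axis, with 1 point for each library and shading where the tag was called. CD26 in Cd8 cells lies at 316 and 324 in sh-NC and at 128 and 127 in sh-B7-H3 (1).

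Several receptors of antigen-experienced T cells were higher in sh-B7-H3 (1) but under the fold limit with TMM scaling. PD-1 lay at 34.2 and 37.4 per 10000 in sh-NC and 65.8 and 69.6 in sh-B7-H3 (1) Cd4 cells (log2 fold change 0.92, SE 0.0665, adjusted p = 0.00221, edgeR), and at 34.0 and 39.8 against 65.9 and 65.9 in Cd8 cells (0.84, SE 0.0805, adjusted p = 0.00198). CD200R, an inhibitory receptor, had 0.90 in Cd4 and 0.79 in Cd8 cells, and Tim-3 0.72 and 0.52. The Tim-3 tag did not pass the background in all 4 libraries of either class. In sh-NC Cd4 cells its ratio to empty droplets was 0.477 and 0.459, below the highest isotype ratios of 0.510 and 0.472. In sh-B7-H3 (1) Cd4 cells it was 0.781 and 0.686, above the highest isotype ratios of 0.556 and 0.580. By the isotype limit Tim-3 was positive in 0.289 and 0.174% of sh-NC and 1.83 and 1.35% of sh-B7-H3 (1) Cd4 cells. In Cd8 cells it was positive in 0.409 and 0.377% against 0.274 and 0.485%. Scaled by total tag UMIs, PD-1 and CD200R passed in both classes, at 1.21 and 1.25 for PD-1, while Tim-3 passed in Cd4 and TIGIT in Foxp3 cells. Their genes differed more than the tags: Pdcd1 by 2.01 and 2.00, Cd200r1 by 1.62 and 2.01, and Havcr2, the gene of Tim-3, by 2.17 and 2.46. Empty droplets had 0.52 for PD-1, 0.35 for CD200R and 0.36 for Tim-3. Over the 14 checkpoint and activation tags none was called in any class with TMM scaling of the counts as deposited. By adjusted p alone 6 were higher and 1 lower in Cd4 cells, 7 and 1 in Cd8 cells, and 2 and 1 in Foxp3 cells. The median was 0.13 in Cd4, 0.09 in Cd8 (0.18 with capped counts) and 0.06 in Foxp3 cells, against 0.00, 0.01 and 0.02 over all named tags.

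The TIGIT tag could not be read from its sums. It lay at 0.546 and 0.685 per 10000 in sh-NC and at 45.0 and 1.40 in sh-B7-H3 (1) Cd4 cells, with a log2 fold change of 5.24 (SE 1.87, adjusted p = 0.0901, edgeR). It was called by DESeq2 in Cd4 cells. After capping it was 1.22 in Cd4 cells, where it was called, and 0.99 in Cd8 cells. The capped share changes were 1.52 and 1.39. Empty droplets, which were not capped, held 1.01 and 1.33 per 10000 in sh-NC and 3.95 and 1.79 in sh-B7-H3 (1), so library 1 sets much of their ratio, and Tigit RNA rose by 2.60 and 2.40. CD69, an early activation receptor, is the opposite case. Its RNA fell by 1.61 in Cd4 and by 1.01 in Cd8 cells while its tag had 0.07 and 0.13, but the tag stood at 0.339 to 0.412 times its share in empty droplets in these cells, within the range of the isotype tags.

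None of the 10 costimulatory tags was called in any class. By adjusted p alone 4 were higher and 3 lower in Cd4 cells, 3 and 4 in Cd8 cells, and 0 and 3 in Foxp3 cells. The medians were 0.09 in Cd4, 0.04 in Cd8 and -0.21 in Foxp3 cells. CD28 lay at 95.5 and 102 against 54.4 and 57.2 in Cd4 cells (-0.82, SE 0.0574, adjusted p = 0.00221, edgeR), with a share change of -0.53, where empty droplets had 0.15 and Cd28 RNA -0.54. ICOS had -0.65 in Cd4 and -0.58 in Cd8 cells, although Icos RNA had 0.37 and 0.61, and its tag did not pass the background in Cd8 cells. GITR had 0.17 in Cd4 cells, where the groups overlapped. In Foxp3 cells 4-1BB had -0.55 in the fit (levels 71.1 and 70.2 against 46.1 and 44.1) and OX-40 had -0.51, but the OX-40 tag passed the background in no class.

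None of the 8 T cell receptor tags was called, and the highest value among them was 0.11 with TMM scaling. The TCR beta chain had -0.47 in Cd4 and in Cd8 cells and -0.27 in Foxp3 cells, and its sign turned to 0.04 in Foxp3 cells when scaled by total tag UMIs. TCR Vb5.1/5.2 had -0.61, -0.71 and -0.81, and passed the background in all 4 libraries only in Cd8 cells. In Cd4 cells its ratio to empty droplets exceeded the isotypes in sh-NC (0.679 and 0.713) but not in sh-B7-H3 (1) (0.525 and 0.493). TCR Vb8.1/8.2 had -0.39, -0.39 and -0.28 (-0.10, 0.02 and 0.03 by total tag UMIs), and CD3 had 0.05, -0.01 and 0.05. Among cytokine receptors CD127 lay at 122 and 124 against 57.0 and 68.8 in Cd4 cells (-0.97) and had -0.99 in Cd8 cells, just under the fold limit, and was called in both with capped counts (-1.11 and -1.01). Its share changes were -0.68 and -0.58, while empty droplets had 0.05 and Il7r RNA fell by 1.505 and 1.33. It had -0.49 in Foxp3 cells. The median of the 4 cytokine receptor tags was -0.45 in Cd4, -0.45 in Cd8 and -0.32 in Foxp3 cells.

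Of the 9 tags associated with regulatory T cells, CD73 in Cd8 cells was the only one called with TMM scaling of the counts as deposited, and the medians were 0.06, -0.15 and -0.20 in Cd4, Cd8 and Foxp3 cells. Medians were 0.06, 0.01 and 0.09 over the 25 adhesion tags, 0.01, 0.03 and 0.05 over the 25 myeloid tags, 0.00, 0.03 and 0.14 over the 11 B cell tags, -0.07, 0.03 and 0.08 over the 11 NK tags, and -0.08, -0.03 and 0.01 over the 16 tags of platelets, red cells, endothelium, epithelium and stroma. The 10 pan-leukocyte and allele tags had -0.41, -0.23 and -0.14, and -0.17 in Cd4 cells with capped counts.

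**Figure D3:**
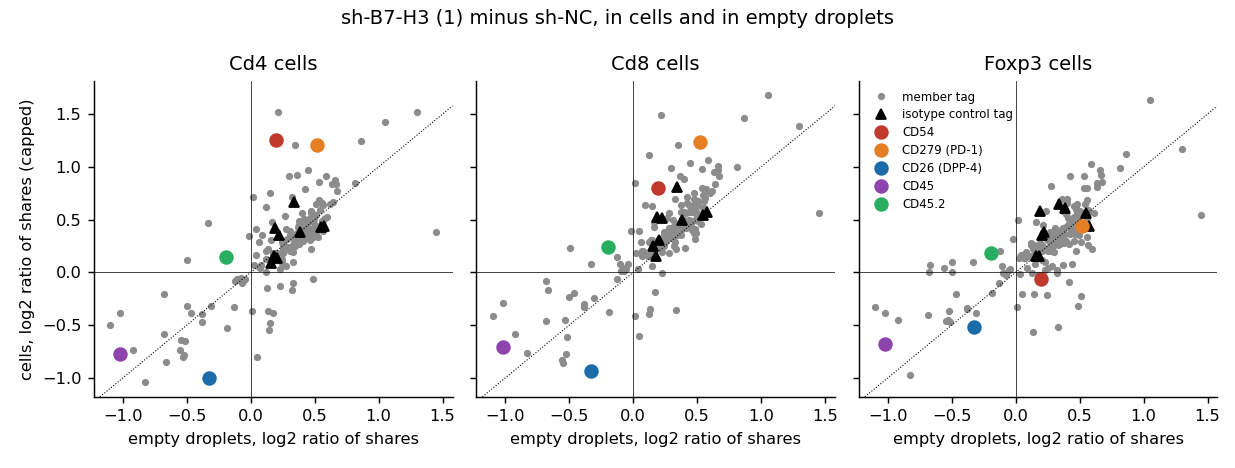
Log2 ratio of shares of tag UMIs, sh-B7-H3 (1) over sh-NC, in cells (y axis, counts capped per cell) against empty droplets (x axis), for the 180 tags (circles, 5 of them colored) and the 9 isotype tags (triangles), with the line of equal values dotted. In Cd4 cells CD54 lies at 1.25 on cells and 0.20 in empty droplets, whereas CD45 lies at -0.77 and -1.02.

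The fourth comparison asked whether the difference between tumors depended on the class, in 1 fit of all 12 sums with an interaction term. Between Foxp3 and Cd4 cells only CD54 was called, against 1.52% of all named tags. CD54 (ICAM-1), an adhesion ligand that inflammatory signals induce, lay at 89.2 and 101 per 10000 in sh-NC and at 182 and 185 in sh-B7-H3 (1) Cd4 cells. In Foxp3 cells it lay at 285 and 320 in sh-NC and at 220 and 225 in sh-B7-H3 (1). The groups did not overlap in either class and stood in opposite order, and the difference of the log2 fold changes was -1.40 (SE 0.0422, adjusted p = 3.07e-05, edgeR). It was called under all 12 alternatives. In the fits within a class, which have scaling factors of their own, the log2 fold change was 0.95 in Cd4 and -0.35 in Foxp3 cells, both under the fold limit, and 1.24 and -0.04 when scaled by total tag UMIs, where the former was called. It was also called in Cd4 cells without sh-NC library 2. Icam1 RNA had 1.32 and 0.09, and empty droplets had 0.20 for the tag.

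PD-1 also had a lower change in Foxp3 than in Cd4 cells, but its groups did not stand in opposite order. In Foxp3 cells it lay at 57.0 and 72.2 in sh-NC and 62.5 and 70.7 in sh-B7-H3 (1), where the groups overlapped, and the interaction against Cd4 cells was -0.87 (SE 0.0892, adjusted p = 0.00225, edgeR), under the fold limit. Between Cd8 and Cd4 cells no tag was called (0%), with 25 tags at an unadjusted p under 0.05, 11 at an adjusted p under 0.05 without the fold limit, and none called by DESeq2. CD54 had -0.54 there (SE 0.0421, adjusted p = 0.00192, edgeR).

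**Figure D4:**
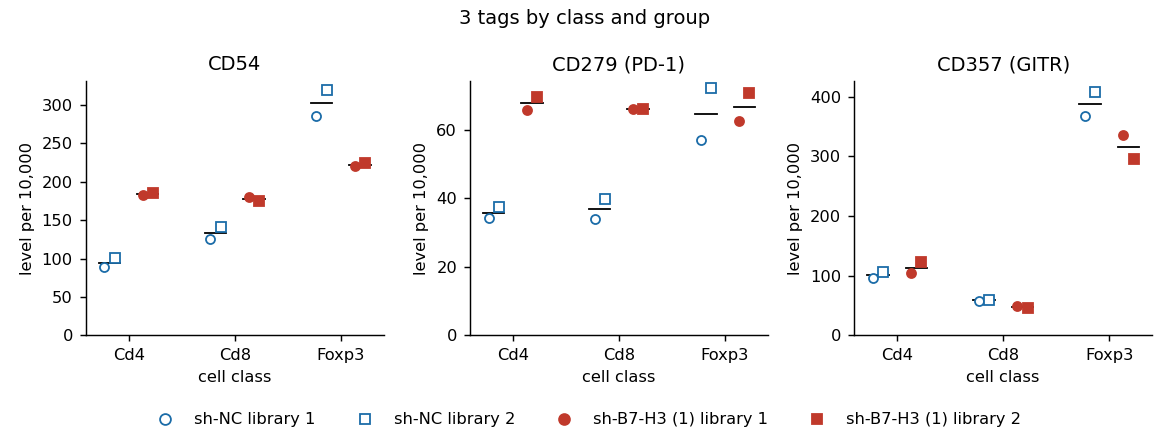
Levels of CD54, PD-1 and GITR in tag UMIs per 10000 after TMM scaling by cell class, with 1 point for each library and a bar at the group mean. CD54 is higher in sh-B7-H3 (1) in Cd4 cells (182 and 185 against 89.2 and 101) and lower in Foxp3 cells (220 and 225 against 285 and 320). The difference in Foxp3 cells was all but absent when scaled by total tag UMIs.

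Sums do not show how many cells carry a protein, so cells were thinned to 2000 tag UMIs and counted as positive above a limit that at most 1% of cells exceeded for the highest isotype tag. KLRG1 was positive in 34.4 and 36.9% of sh-NC and 32.9 and 34.2% of sh-B7-H3 (1) Foxp3 cells, against 0.697 to 1.01% of Cd4 cells. PD-1 was positive in 24.8 and 25.9% of sh-NC and 69.1 and 66.7% of sh-B7-H3 (1) Cd4 cells, in 25.3 and 27.3% against 64.5 and 62.0% of Cd8 cells, and in 47.9 and 48.2% against 62.7 and 59.6% of Foxp3 cells. At this depth the groups did not overlap in any class, and an exact permutation test of 2 against 2 libraries cannot go below the p = 0.333 that it gave for each. Without thinning the groups overlapped in Foxp3 cells, at 73.4 and 63.5% against 73.5 and 71.6% (exact permutation p = 0.667). GITR was positive in 85.7 and 83.0% of sh-NC and 49.1 and 51.7% of sh-B7-H3 (1) Cd8 cells, where the limit was 4 UMIs in sh-NC and 7 in sh-B7-H3 (1). With a limit that 5% of isotype counts may pass, these were 91.6 and 89.1% against 76.4 and 68.6%. In Cd4 cells GITR was positive in 91.2 and 91.6% against 87.2 and 82.9%, and in Foxp3 cells in 92.6 and 90.5% against 89.2 and 86.3%. As a background, the absent allele CD45.1 was positive in 5.47 to 23.6% of cells over all classes and libraries. The limit was 4 to 6 UMIs in sh-NC and 6 to 9 in sh-B7-H3 (1), and 77 Cd4 cells of sh-B7-H3 (1) library 2 were too shallow, against 6 to 16 in the other libraries.

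Libraries of a group were close for most tags, with median ratios of 1.03 to 1.12 between them. The largest ratios came from single barcodes. For TIGIT in sh-B7-H3 (1) Cd4 cells, 96.7% of the UMIs of library 1 came from a single barcode, while the next cell held 28 and the median cell 0. The ratio between the libraries was 32.1 as counted and 1.07 after capping.

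Most other large ratios had the same form. CD163, a macrophage receptor, had a ratio of 28.8 in sh-NC Cd4 cells, with 96.2% of library 1 in 1 cell, and CD205 had 19.1 in sh-B7-H3 (1) Foxp3 cells, with 94.7% in 1 cell. TIGIT in sh-NC Cd8 cells had 12.04. CD45.1 and the panendothelial cell antigen had 6.93 and 6.47 in sh-NC Cd4 cells, with 87.0 and 85.9% of library 2 in 1 cell that held 75393 tag UMIs where the median cell held 3868. After capping these ratios were 1.06 to 1.15. CD24 in sh-B7-H3 (1) Cd8 cells had 3.17, and its top cells held 13201 and 12331 of the 37397 UMIs of library 1. Its ratio after capping was 1.00.

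CD326 (Ep-CAM), an epithelial adhesion protein, did not follow this form, and its tag passed the background in no class. It was 2.44 times higher in library 2 than in library 1 of sh-NC in Cd8 cells and 2.40 times in Cd4 cells, and capping left 2.41 and 2.38. Its top cell held 0.309% of the UMIs in Cd8 cells. Empty droplets had 11.9 and 36.9 per 10000 in sh-NC libraries 1 and 2, against 18.3 and 17.1 in sh-B7-H3 (1), and Epcam RNA in Cd4 cells was at 4.65 and 5.104 CPM in sh-NC and at 13.6 and 10.7 CPM in sh-B7-H3 (1).

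**Figure D5:**
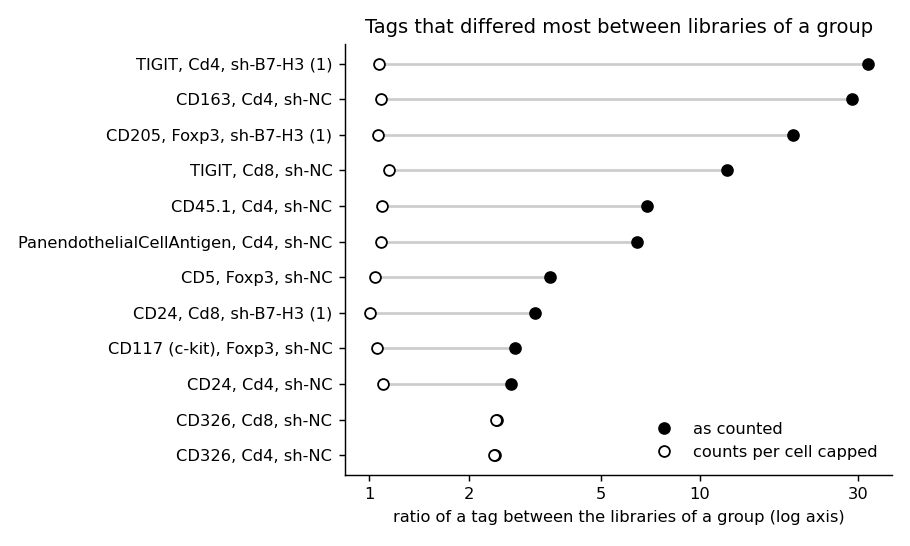
Ratio of a tag between the 2 libraries of a group for the 12 largest cases, on a log axis, as counted (filled) and with each cell's count capped at the 99th percentile (open). TIGIT in sh-B7-H3 (1) Cd4 cells moves from 32.1 to 1.07, whereas CD326 in sh-NC Cd8 cells stays at 2.41.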

How the data were processed

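The authors made UMI counts with Cell Ranger (mm10) and deposited them without normalization, for called cells and for all barcodes; the raw counts per tag and gene were used here. The tags, lists and comparisons were chosen with earlier results of these data known. Kept cells had 200 to 3000 genes and at most 5% mitochondrial UMIs. Of the cells within these filters, simulated-doublet neighbours removed 22.0 and 21.6% in sh-NC and 15.6 and 16.4% in sh-B7-H3 (1). Cells with Cd4 UMIs and at least 3 Cd8a plus Cd8b1 UMIs were 1.12 and 1.41% of kept cells in sh-NC and 2.64 and 3.42% in sh-B7-H3 (1), and fell in no class. Cd8 cells had at least 3 Cd8a plus Cd8b1 UMIs and no Cd4 or Foxp3. Cd4 cells had at least 1 Cd4 UMI and no Foxp3, and Foxp3 cells at least 1 Foxp3 UMI, both without Cd8 UMIs. Empty droplets were uncalled barcodes with 10 to 300 tag UMIs. Tag counts were summed per library and class and tested with edgeR 4.0.16 across all 197 named tags (TMM scaling, no covariate; library as a term between classes). Genes were fitted alike. Tags were named if called, as allele tags, or with the largest ratios between libraries. Every tag of the receptor lists was to be named, but some were left out, among them CD226, BTLA, PD-L1, CD71 and CD200. Other examples were chosen after their values were seen. The fit recovered 100% of simulated tag changes of 2 on the log2 scale. These were larger than most differences called here and came without single-barcode outliers, so the simulation does not measure recovery near the fold limit.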

Additional observations from a re-analysis of the deposited data

Results flagged for a closer look

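CD54 stood out because its difference between sh-B7-H3 (1) and sh-NC tumors was not the same in Foxp3 as in Cd4 cells. The interaction was -1.40 on the log2 scale (SE 0.0422, adjusted p = 3.07e-05, edgeR), and -1.30 with counts per cell capped. With TMM scaling the tag was higher in sh-B7-H3 (1) in both libraries of Cd4 cells and lower in both libraries of Foxp3 cells. The difference in Foxp3 cells was all but absent when scaled by total tag UMIs, as given above. Tumors were pooled in both hairpin groups, so the spread between mice was not measured.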

How the results depend on the processing

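No called tag reversed its direction under any alternative, and 370 of the recomputed differences kept their call while 35 lost it. Without the fold limit, 106, 125 and 78 named tags passed between hairpins in Cd4, Cd8 and Foxp3 cells, 76 between Foxp3 and Cd4 cells, 26 between Cd8 and Cd4 cells, and 34 and 11 in the interactions. Scaling by total tag UMIs gave 10 calls in Foxp3 cells. Stricter RNA calls (at least 2 Cd4, 2 Foxp3 or 6 Cd8 UMIs) gave 14 and 5 calls between classes and 5 in the interaction of Foxp3 cells. Of the 14, 11 were higher and 3 lower in Foxp3 than in Cd4 cells, and DESeq2 gave 9 higher and 1 lower. Leaving out 1 library gave 11 to 17, 12 to 16 and 5 to 8 calls between hairpins, 8 to 9 and 2 to 3 between classes, and 4 to 6 and 0 to 2 in the interactions. Between hairpins in Foxp3 cells, the count of 8 was without sh-B7-H3 (1) library 1. In the interaction of Cd8 cells, the count of 2 was without sh-NC library 1 (CD45.1 and the panendothelial cell antigen). The ratio to empty droplets, added after the data were seen, gave 38, 41 and 50 tags above the isotypes, and 38, 41 and 49 with capped counts. The members behind the equal count in Cd8 cells changed, as CD3 passed there only with capped counts.

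Shares of positive cells moved with the depth treatment, given as sh-B7-H3 (1) minus sh-NC in percentage points. Without thinning, PD-1 had 34.0, 34.1 and 4.04 in Cd4, Cd8 and Foxp3 cells, GITR -15.7 in Cd4 and -7.20 in Foxp3 cells, and KLRG1 -0.403, -0.444 and -0.143. With a limit that 5% of isotype counts may pass, PD-1 had 29.3, 40.9 and 17.6, GITR -17.8 in Cd8 and -1.59 in Foxp3 cells, and KLRG1 -1.13, -0.0274 and 6.86. KLRG1 thus changed sign in Cd4 cells, from 0.0493, and in Foxp3 cells, from -2.09. The cause was not tested.

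The replicate numbers did not pair the libraries, with correlations of deviations of -0.037, 0.083 and -0.109 in Cd4, Cd8 and Foxp3 cells. A replicate block gave 12, 12 and 3 calls between hairpins, where CD117 in Foxp3 cells had an adjusted p of 0.0523 (edgeR), and crossed numbers gave 4. The block ended no other call of a member between hairpins. For the interactions no blocked fit could be made, because they already hold a term for each library, in which the numbers are contained. Foxp3 cells were few, at 162 to 286 a library. Members with over 20% of their UMIs in 1 cell numbered 0 to 3 per library there, 1 to 7 in Cd4 and 1 to 4 in Cd8 cells.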
